A study of Mus musculus with 24 samples.

Results

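Chondrocytes grown beside dermal fibroblasts could carry fibroblast transcripts into their libraries, and 10 genes known as markers of dermal and universal fibroblasts were followed to measure this. They were Dpt, Clec3b, Pi16, Dpp4, Cd34, Pdgfra, Pdgfrb, Ly6a, Thy1 and Twist2, taken by symbol from the 17094 genes of the expression table, and all 10 were present. The study sequenced poly(A)-selected RNA of primary chondrocytes from wild-type mice, 24 libraries in 8 groups of 3. Chondrocytes occupied the lower chamber of transwell plates, which keep 2 cell populations apart on either side of a membrane, and primary dermal fibroblasts (DFbs) were the partner in co-culture. The groups were co-culture with IL-1β, co-culture without IL-1β, normal culture with IL-1β and normal culture without IL-1β, each collected at 72 h and at 36 h. IL-1β, an inflammatory cytokine, was given at 10 ng/ml from 24 h after the cells had attached, and the times run from its addition. Cartilage was digested with collagenase II and skin with collagenase I. Normal chondrocyte medium was DMEM/F12 with ITS and serum, fibroblast medium was alpha-MEM with serum, while for co-cultures the sources used here do not give the medium. The fibroblasts themselves were not analysed here, so no level in pure fibroblasts is at hand.

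Universal fibroblasts are a population found in the connective tissue of many organs, often around vessels, and Pi16 and Dpt are among the genes that define it. Dermal fibroblasts of the mouse share this programme and arise from mesenchyme that expresses Twist2 and Pdgfra. None of the 10 genes is exclusive to skin: perichondrial, synovial and tendon cells, and chondrocytes that lose their phenotype in monolayer, can express several of them.

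Dpt encodes dermatopontin, a small matrix protein that binds decorin and collagen. Clec3b encodes tetranectin, a secreted C-type lectin that binds plasminogen. Pi16 encodes a CAP-family protein, Dpp4 a surface dipeptidyl peptidase (CD26), and Cd34 a sialomucin of blood progenitors, endothelium and interstitial fibroblasts. Pdgfra and Pdgfrb encode the receptors for platelet-derived growth factors. Ly6a (Sca-1) and Thy1 (CD90) encode surface proteins held by a lipid anchor, and Twist2 a bHLH transcription factor of dermal and skeletal mesenchyme.

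The sequences just upstream of Dpt, Pdgfra and Twist2 are shown because these 3 genes gave a fall, a fall and a rise in every IL-1β comparison below. They are the 250 bases before the RefSeq start on GRCm38.p6, all on the plus strand, at chr1:164796413-164796662 for Dpt, chr5:75152001-75152250 for Pdgfra and chr1:91801211-91801460 for Twist2. Capitals mark matches, on either strand, to 5 motifs picked after the expression values were known.
Dpt: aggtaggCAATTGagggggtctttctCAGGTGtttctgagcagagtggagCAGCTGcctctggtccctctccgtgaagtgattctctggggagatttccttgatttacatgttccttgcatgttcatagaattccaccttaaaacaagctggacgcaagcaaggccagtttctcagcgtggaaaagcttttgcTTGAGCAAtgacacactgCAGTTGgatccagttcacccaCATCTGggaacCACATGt
Pdgfra: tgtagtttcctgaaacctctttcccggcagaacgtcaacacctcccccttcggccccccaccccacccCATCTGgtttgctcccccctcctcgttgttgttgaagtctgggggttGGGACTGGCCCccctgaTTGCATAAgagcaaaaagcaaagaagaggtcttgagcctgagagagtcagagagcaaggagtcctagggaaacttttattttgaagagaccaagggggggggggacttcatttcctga
Twist2: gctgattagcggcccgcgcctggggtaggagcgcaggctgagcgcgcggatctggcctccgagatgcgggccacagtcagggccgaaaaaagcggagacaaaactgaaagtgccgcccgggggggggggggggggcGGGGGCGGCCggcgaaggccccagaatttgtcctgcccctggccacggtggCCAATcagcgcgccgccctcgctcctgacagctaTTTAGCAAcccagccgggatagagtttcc
The motifs were an NF-kB motif of GGG, any 5 bases and CC, TGANTCA (AP-1), TTGCNNAA (C/EBP), CANNTG (E-box, the kind of site that Twist proteins bind) and CCAAT. They occurred in 46.0%, 6.73%, 9.57%, 66.2% and 33.8% of the same windows of 32536 promoters. The Dpt window held 1 C/EBP match and 6 E-box matches. It runs past the GENCODE vM21 start of Dpt (164796644), so its last 2 E-box matches lie inside the gene by that annotation. The Pdgfra window held 2 NF-kB matches that overlap each other, 1 C/EBP match and 1 E-box match. The Twist2 window held 1 match each to NF-kB, C/EBP and CCAAT. The windows had 48.8% GC for Dpt, 54.4% for Pdgfra and 68.8% for Twist2, against a median of 52.4% over all promoters. These are letter matches only.

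All 10 are protein-coding genes, placed here by GENCODE vM21 on GRCm38. Dpt (ENSMUSG00000026574) spans chr1:164796644-164824266 on the plus strand, Twist2 (ENSMUSG00000007805) chr1:91801461-91848028 plus, and Cd34 (ENSMUSG00000016494) chr1:194938819-194961279 plus. Dpp4 (ENSMUSG00000035000) spans chr2:62330073-62412231 on the minus strand and Pdgfra (ENSMUSG00000029231) chr5:75152292-75198215 on the plus strand. Thy1 (ENSMUSG00000032011) and Clec3b (ENSMUSG00000025784) lie at chr9:44043384-44048579 and chr9:123150946-123157432, both plus. Ly6a (ENSMUSG00000075602) lies at chr15:74994877-74998031 minus, Pi16 (ENSMUSG00000024011) at chr17:29317680-29330593 plus and Pdgfrb (ENSMUSG00000024620) at chr18:61045150-61085061 plus. Whether the counting used strand is not given in the sources used here. Twist2 values are therefore uncertain, because 1477 of its 3174 exonic bases overlap exons of the antisense gene Gm29100. Antisense genes also overlap Pdgfra, Cd34, Dpp4 and Pi16, where between 0.696% and 3.3% of stretches of 100 bases are shared, and Ly6a shares 1.45% of them with its paralogue Ly6c1.

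In FPKM, which is scaled by gene length and so allows levels of different genes to be compared, the markers covered a wide range. Ly6a averaged 377 FPKM over the 24 libraries and ranked 187 of 17094 genes. Thy1 averaged 78.4, Pdgfra 56.3 and Pdgfrb 54.2 FPKM, between the 91.9 and 94.7 percentiles of all genes. Cd34 averaged 17.1 and Twist2 11.1 FPKM. Dpt averaged 3.71, Clec3b 1.07, Dpp4 0.707 and Pi16 0.658 FPKM, the lowest of the markers. Dpt averaged 13.4 FPKM in its highest group, untreated normal cultures at 36 h. These levels belong to normal cultures as much as to co-cultures. Without added dermal fibroblasts, untreated cells at 36 h held 525 ± 13.4 FPKM of Ly6a, 97.2 ± 3.79 of Pdgfra and 64.2 ± 0.757 of Thy1 (SD, n = 3). Whether the cartilage digests themselves held fibroblast-like cells was not tested.

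All 10 genes reached 1 FPKM in at least 3 libraries and were tested among 12178 genes. Clec3b did so in 7 libraries and Dpp4 and Pi16 in 5 each, so they entered through the groups where they were high. Changes below are differences of log2(FPKM + 1), which compress the change of scarce genes, with limma's standard error (SE) and p adjusted by Benjamini-Hochberg over all tested genes; the threshold for a call, or passing, was an adjusted p under 0.05. The number of reads behind each value is unknown, so no counting interval is given. The labels do not say that the 3 libraries of a group came from separate animals or cultures, so p-values measure the spread between these libraries, which may be technical. In bulk RNA, fewer cells of a type and less RNA per cell cannot be told apart.

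**Figure D1:**
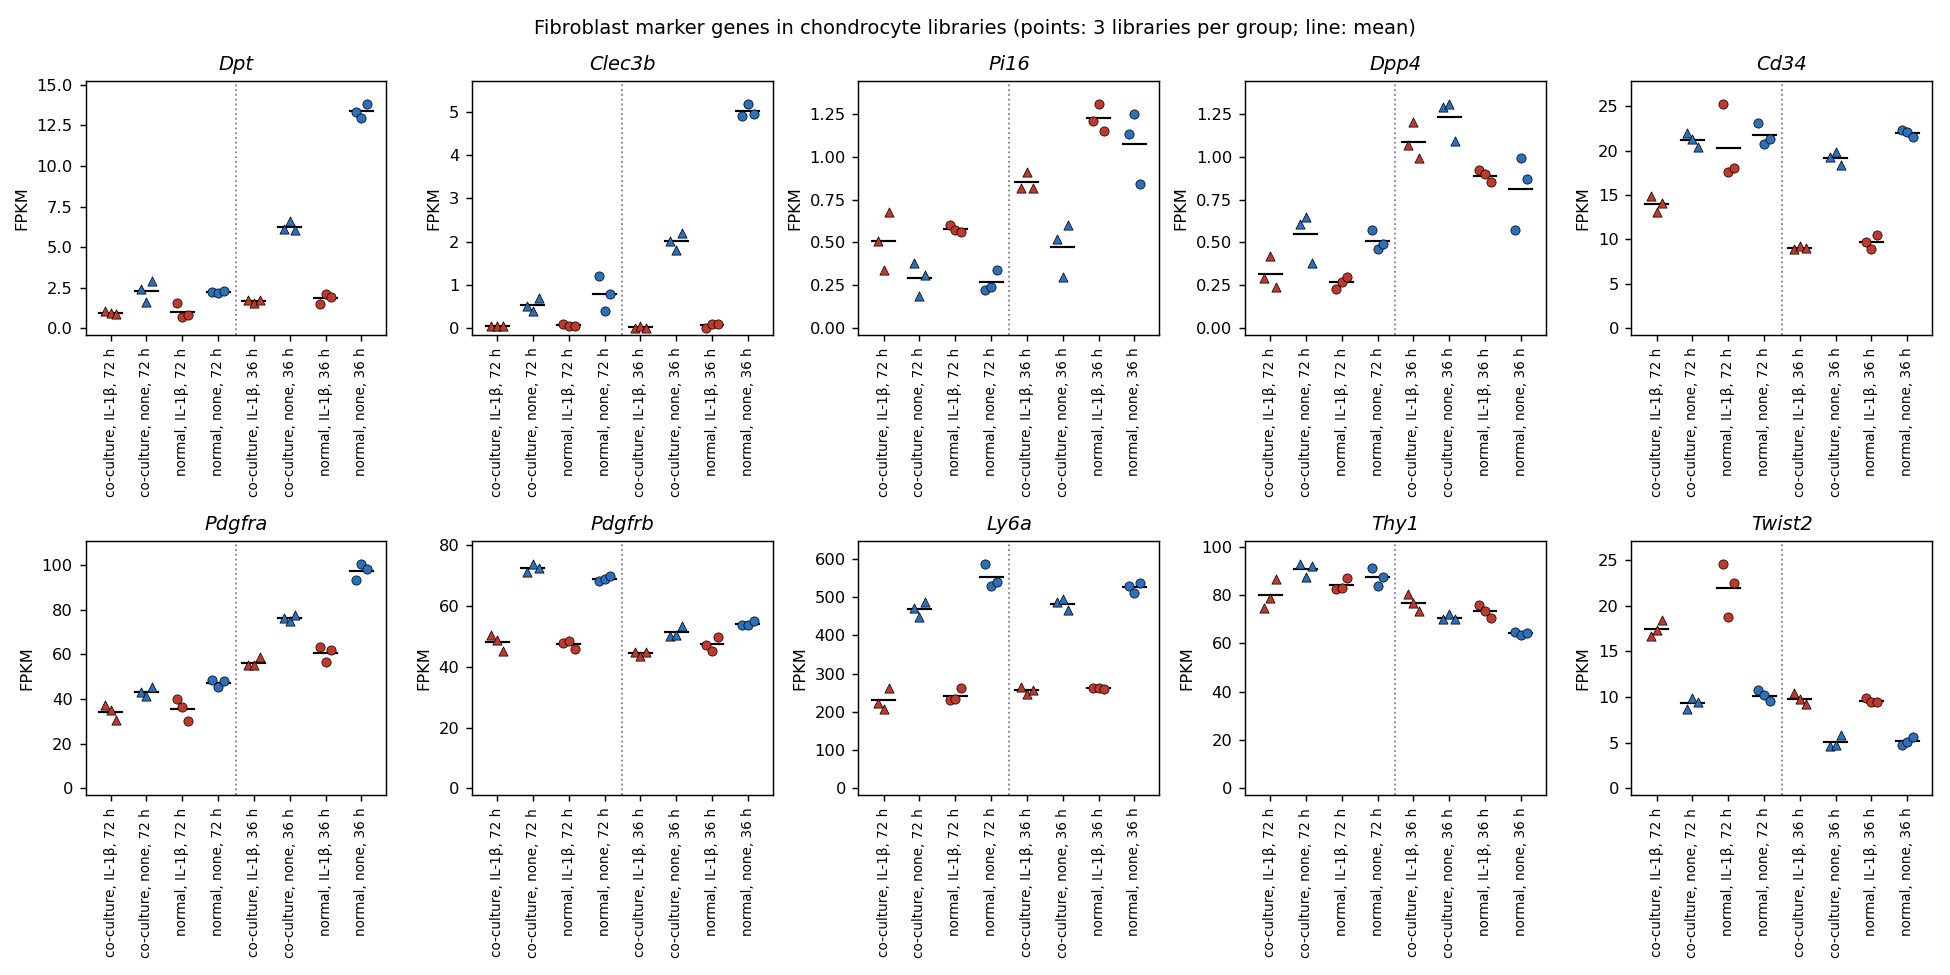
FPKM of the 10 fibroblast markers in each library (points) with the group mean (line), groups along the x axis, 72 h left of the dotted line and 36 h right of it; triangles are co-cultures, circles normal cultures, red IL-1β and blue none. Dpt and Clec3b peak in untreated normal cultures at 36 h (13.4 and 5.01 FPKM), whereas Twist2 is highest with IL-1β at 72 h.

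The first question was whether the markers were higher in co-culture. Over the 4 comparisons of co-culture with normal culture, the 10 genes gave 40 tests, of which 1 was higher in co-culture, 6 were lower and 33 did not pass. Most of the calls fell in untreated cells at 36 h, where Dpt, Clec3b, Pi16 and Pdgfra were lower and Dpp4 was higher. These are 5 of 10 genes, where 15.5% of all tested genes passed, 6.28% higher and 9.2% lower. Clec3b, Pi16 and Dpp4 entered the tests through the groups where they were high, mostly at 36 h. The 5 are therefore not to be read as an excess over that share. The groups did not overlap for 9 of the 10, as for 42.1% of all tested genes.

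Dpt had 6.10, 6.58 and 6.07 FPKM in untreated co-cultures at 36 h, against 13.35, 12.96 and 13.85 FPKM in untreated normal cultures. The change was -0.99 (SE 0.13, limma adjusted p = 8.31e-06). Clec3b had 2.01, 1.81 and 2.21 FPKM in co-cultures, against 4.89, 5.19 and 4.94 FPKM in normal cultures, a change of -1.0 (SE 0.11, limma adjusted p = 6.14e-07). Neither gene's groups overlapped, and in both the level in co-culture was the lower.

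Pi16 had 0.52, 0.30 and 0.60 FPKM in untreated co-cultures at 36 h, against 1.13, 1.25 and 0.84 FPKM in normal cultures (change -0.49, SE 0.09, limma adjusted p = 0.000514). Pdgfra had 76.22, 74.72 and 77.78 FPKM in co-cultures, against 93.09, 100.55 and 98.03 FPKM in normal cultures (change -0.35, SE 0.08, limma adjusted p = 0.00282). In both genes every co-culture lay below every normal culture. Dpp4 was the exception, with 1.29, 1.31 and 1.09 FPKM in co-cultures and 0.57, 0.99 and 0.87 FPKM in normal cultures (change 0.31, SE 0.08, limma adjusted p = 0.0148). The Dpp4 call was lost without replicate 1 of the normal cultures (change 0.21, limma adjusted p = 0.12) and, narrowly, without co-culture replicate 1 or 2 or with a pseudocount of 0.1 (limma adjusted p = 0.0523).

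The other 5 markers did not pass in untreated cells at 36 h. Thy1 averaged 70.7 ± 1.2 FPKM in co-cultures and 64.2 ± 0.757 FPKM in normal cultures (change 0.14, 95% interval 0.03 to 0.24, limma adjusted p = 0.063), and passed under TPM or median-of-ratios scaling. Cd34 averaged 19.2 ± 0.727 FPKM in co-cultures and 22 ± 0.428 FPKM in normal cultures (change -0.19, 95% interval -0.37 to -0.01). For Ly6a the change was -0.12 (95% interval -0.26 to 0.02), for Pdgfrb -0.08 (-0.17 to 0.01) and for Twist2 -0.01 (-0.19 to 0.16).

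With IL-1β at 72 h, 2 of the 10 markers were lower in co-culture and none higher, where 12.5% of all tested genes passed, 7.22% higher and 5.26% lower. The groups did not overlap for 2 markers and for 19.2% of all tested genes. Cd34 had 14.85, 13.09 and 14.11 FPKM in co-cultures with IL-1β at 72 h, against 25.29, 17.58 and 18.04 FPKM in normal cultures (change -0.49, SE 0.09, limma adjusted p = 0.00169). Replicate 1 of the normal cultures stood above the other two, and without it the change was -0.33 (limma adjusted p = 0.00316). Twist2 had 16.65, 17.29 and 18.46 FPKM in co-cultures, against 24.58, 18.74 and 22.51 FPKM in normal cultures (change -0.31, SE 0.08, limma adjusted p = 0.0221). Same-numbered libraries deviated together in this comparison, and with the replicate block in a fit of the 6 libraries compared neither gene passed (limma adjusted p = 0.112 for Cd34 and 0.138 for Twist2). The Twist2 call was also lost without replicate 1 of the normal cultures (change -0.22, limma adjusted p = 0.136), without co-culture replicate 1 or 2, and with weights per library (change -0.13).

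No marker passed in the 2 remaining comparisons. Without IL-1β at 72 h, 3.4% of all tested genes passed (1.72% higher and 1.68% lower), the groups of 3 markers and of 33.8% of all tested genes did not overlap, and Ly6a came nearest, with 471.87, 447.05 and 487.63 FPKM in co-cultures against 587.16, 529.52 and 540.36 FPKM in normal cultures (change -0.24, SE 0.07, limma adjusted p = 0.0513). The groups did not overlap, and Ly6a passed with weights per library, with TPM scaling, with the replicate block or with a filter at 5 FPKM. Clec3b changed by -0.21 without IL-1β at 72 h (95% interval -0.43 to 0.01, limma adjusted p = 0.277), and passed without replicate 2 of the normal cultures (change -0.38). With IL-1β at 36 h, 10.6% of all tested genes passed (6.38% higher and 4.17% lower), the groups of 3 markers and of 32.7% of all tested genes did not overlap, and Pi16 came nearest with 0.85 ± 0.052 FPKM in co-cultures and 1.22 ± 0.0808 FPKM in normal cultures (change -0.26, SE 0.09, limma adjusted p = 0.063).

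On the scale of the changes, which compresses those of scarce genes, the intervals limit how far any marker could have been raised in co-culture. They bound the ratio of FPKM less tightly for scarce markers such as Clec3b and Dpp4 than for abundant ones. The highest upper 95% limit over the 10 genes was 0.24 with IL-1β at 72 h, 0.28 without IL-1β at 72 h, 0.32 with IL-1β at 36 h and 0.48 without IL-1β at 36 h. The first 2 of these limits belonged to Dpt and the others to Dpp4. The summed level of the 10 markers ran from 684 to 731 FPKM in untreated co-cultures at 72 h, against 762 to 833 FPKM in normal cultures, and from 700.3 to 726 FPKM in co-cultures at 36 h, against 776 to 803 FPKM in normal cultures. With IL-1β the sums overlapped, from 401 to 458 FPKM in co-cultures against 438 to 468 FPKM in normal cultures at 72 h, and from 446 to 469 FPKM in co-cultures against 459 to 472 FPKM in normal cultures at 36 h. Ly6a makes up most of these sums. The part that the co-culture medium played in these differences was not tested.

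**Figure D2:**
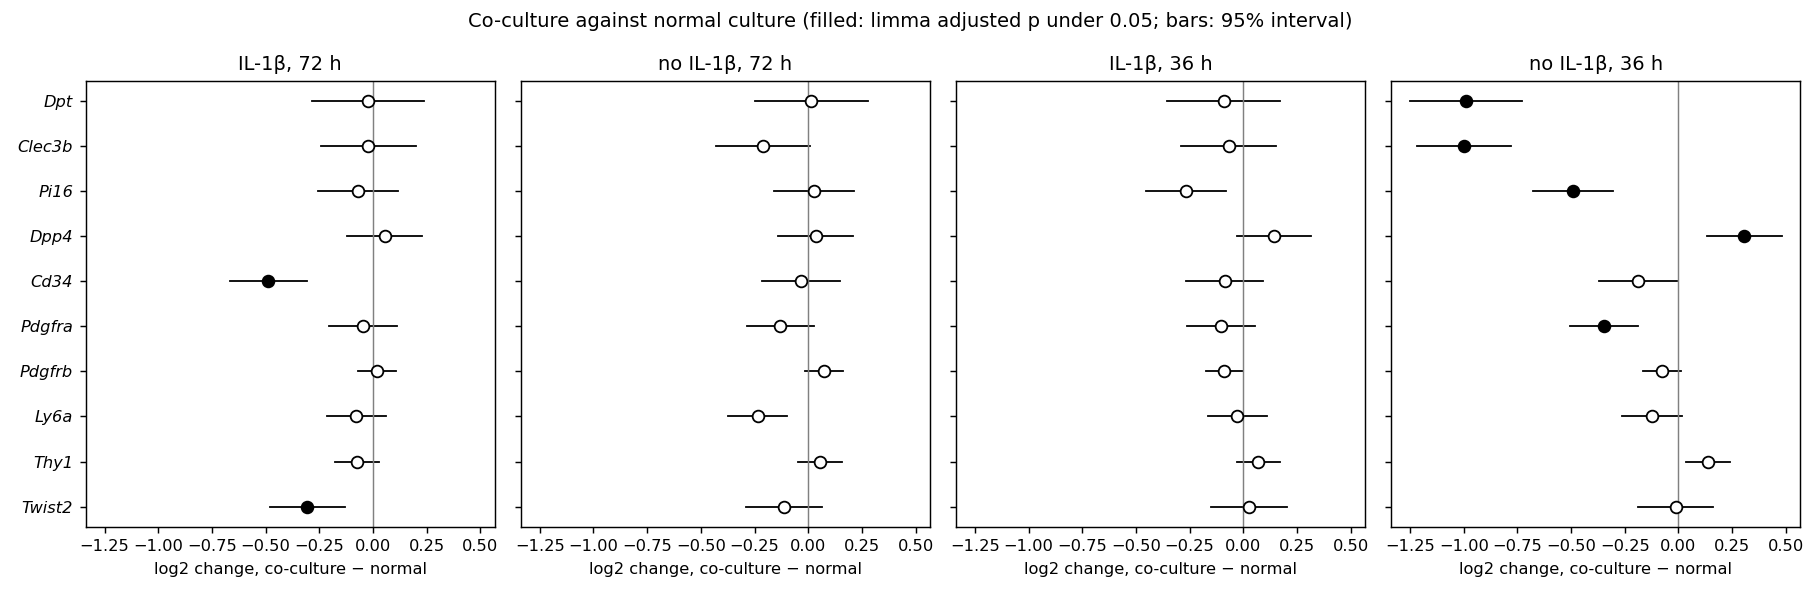
Change of each marker in co-culture against normal culture (x axis, difference of log2(FPKM + 1); bars, 95% interval; filled points, limma adjusted p under 0.05), 1 panel per IL-1β state and time. Dpt and Clec3b lie near -1 in untreated cells at 36 h, where Dpp4 at 0.31 is the filled point right of 0. In untreated cells at 72 h Dpt lies at 0.01 and Clec3b at -0.21.

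The co-culture effect without IL-1β differed between the times for 3 markers, where 4.97% of all tested genes passed, 2.76% higher and 2.21% lower. The co-culture effect at 72 h minus that at 36 h was 1.00 for Dpt (SE 0.18, limma adjusted p = 0.00133), 0.79 for Clec3b (SE 0.15, limma adjusted p = 0.00252) and 0.52 for Pi16 (SE 0.13, limma adjusted p = 0.0175). At 72 h untreated Dpt stood at 2.41, 1.63 and 2.92 FPKM in co-cultures and at 2.26, 2.18 and 2.29 FPKM in normal cultures, which overlap. For Pi16 the difference was lost without normal replicate 2 or co-culture replicate 2 of 36 h, or co-culture replicate 1 of 72 h. With IL-1β no marker's co-culture effect differed between times, where 2.6% of all tested genes passed, 1.08% higher and 1.52% lower; the largest difference was -0.40 for Cd34 (SE 0.12, limma adjusted p = 0.0893). For normal cultures with IL-1β at 72 h, it was -0.24 without replicate 1, and it passed without replicate 2 (-0.49) or 3 (-0.47).

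IL-1β moved the markers far more than co-culture did in number of calls. Of 40 tests, 26 were lower with IL-1β, 9 were higher and 5 did not pass. Ly6a, Dpt, Clec3b, Pdgfra and Pdgfrb fell in all 4 comparisons, and Twist2 rose in all 4. In co-culture at 72 h, 2 markers rose and 8 fell, where 49.1% of all tested genes passed, 18.5% higher and 30.6% lower. In normal culture at 72 h, 2 rose and 6 fell, where 63.4% passed, 23.1% higher and 40.3% lower. In co-culture at 36 h, 3 rose and 6 fell, where 58.7% passed, 23.4% higher and 35.3% lower. In normal culture at 36 h, 2 rose and 6 fell, where 67.5% passed, 25.9% higher and 41.5% lower. The groups did not overlap for 8 markers in co-culture and 8 in normal culture at 72 h, as for 56.9% and 61.6% of all tested genes, and for 9 in co-culture and 8 in normal culture at 36 h, as for 70.2% and 73% of all tested genes. The median change of the 10 was -0.44 in co-culture and -0.33 in normal culture at 72 h, and -0.32 in co-culture and -0.43 in normal culture at 36 h, while that of all tested genes lay between -0.09 and -0.06.

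Ly6a, the most abundant marker, was lowered by IL-1β to a ratio of mean FPKM of 0.438 to 0.532 over the 4 comparisons. At 72 h it had 222.37, 206.61 and 261.44 FPKM in co-cultures with IL-1β against 471.87, 447.05 and 487.63 FPKM without (change -1.03, SE 0.07, limma adjusted p = 1.23e-11). Normal cultures at 72 h had 230.47, 232.84 and 263.02 FPKM with IL-1β against 587.16, 529.52 and 540.36 FPKM without (change -1.19, limma adjusted p = 7.19e-13). At 36 h the change was -0.91 in co-culture and -1.0 in normal culture. The 12 libraries with IL-1β all lay below the 12 without. Ly6c1, the neighbouring family member, moved further: it averaged 22.6 FPKM with IL-1β and 81.2 FPKM without in co-cultures at 72 h, and 14.4 FPKM with IL-1β and 120 FPKM without in normal cultures at 36 h. Its changes were -1.81 in co-culture and -2.19 in normal culture at 72 h, and -2.69 in co-culture and -2.98 in normal culture at 36 h.

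Dpt and Clec3b, the matrix protein and the lectin, fell most at 36 h. In normal cultures at 36 h Dpt had 1.51, 2.13 and 1.92 FPKM with IL-1β against 13.35, 12.96 and 13.85 FPKM without (change -2.34, SE 0.13, limma adjusted p = 2.91e-13). In co-cultures at 36 h Dpt had 1.73, 1.56 and 1.71 FPKM with IL-1β against 6.10, 6.58 and 6.07 FPKM without (change -1.44, limma adjusted p = 1.9e-09). With IL-1β the 2 kinds of culture therefore lay at the same low level, and their ranges overlap. Clec3b was at the edge of the measurement with IL-1β: co-cultures at 36 h were listed at 0, 0.05 and 0 FPKM and normal cultures at 0, 0.1 and 0.1 FPKM, against 2.01, 1.81 and 2.21 FPKM in untreated co-cultures and 4.89, 5.19 and 4.94 FPKM in untreated normal cultures. At 72 h Clec3b was between 0.05 and 0.1 FPKM in the 6 libraries with IL-1β and between 0.39 and 1.2 FPKM in the 6 without. The change at 36 h was -1.56 in co-culture and -2.49 in normal culture, and at 72 h -0.54 in co-culture and -0.73 in normal culture.

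Both growth factor receptors fell with IL-1β at both times. Pdgfra, which binds the A chain, had 55.02, 55.28 and 58.61 FPKM in co-cultures with IL-1β at 36 h against 76.22, 74.72 and 77.78 FPKM without (change -0.43, SE 0.08, limma adjusted p = 4.38e-05). In normal cultures at 36 h Pdgfra averaged 60.6 ± 3.51 FPKM with IL-1β and 97.2 ± 3.79 FPKM without (change -0.67). Its changes at 72 h were -0.33 in co-culture and -0.42 in normal culture. Pdgfrb, which binds the B and D chains and also marks pericytes, had 50.31, 48.62 and 45.15 FPKM in co-cultures with IL-1β at 72 h against 71.10, 73.83 and 72.53 FPKM without (change -0.59, SE 0.04, limma adjusted p = 7.88e-11). Normal cultures at 72 h averaged 47.4 ± 1.29 FPKM of Pdgfrb with IL-1β and 68.9 ± 0.729 FPKM without (change -0.53). At 36 h Pdgfrb changed by -0.20 in co-culture and by -0.19 in normal culture. Of the ligands, Pdgfa rose in all 4 comparisons, by 0.90 in co-culture and 1.26 in normal culture at 72 h and by 1.21 in co-culture and 1.27 in normal culture at 36 h. Changes of the other ligands are not given here. At 72 h the mean sum of the 5 listed PDGF ligands and related genes was 54.6 FPKM with IL-1β and 53.0 FPKM without in co-cultures. In normal cultures at 72 h it was 62.7 and 53.2 FPKM. At 36 h the sum was 63.9 and 52.6 FPKM in co-cultures and 68.4 and 54.5 FPKM in normal cultures. Of 7 tested pericyte and smooth muscle genes, 5 rose and 1 fell in each of 3 comparisons and 7 rose in normal culture at 36 h. Over those 3 comparisons 18.5% to 23.4% of all tested genes rose and 30.6% to 40.3% fell. In normal culture at 36 h, 25.9% rose and 41.5% fell.

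Twist2 rose to 16.65, 17.29 and 18.46 FPKM in co-cultures with IL-1β at 72 h, against 8.66, 9.88 and 9.42 FPKM without (change 0.84, SE 0.08, limma adjusted p = 2.35e-08). In normal cultures at 72 h it had 24.58, 18.74 and 22.51 FPKM with IL-1β against 10.72, 10.20 and 9.56 FPKM without (change 1.03, limma adjusted p = 5.49e-10). At 36 h Twist2 averaged 9.81 ± 0.59 FPKM with IL-1β and 5.09 ± 0.667 FPKM without in co-cultures (change 0.83), and 9.6 ± 0.284 FPKM with IL-1β and 5.14 ± 0.48 FPKM without in normal cultures (change 0.79). In none of these comparisons did the groups overlap. Its closest relative went the other way: Twist1 averaged 20.7 FPKM with IL-1β and 32.7 FPKM without in co-cultures at 72 h (change -0.63), and 22.5 FPKM with IL-1β and 33.6 FPKM without in normal cultures (change -0.56). At 36 h Twist1 averaged 18.2 FPKM with IL-1β and 26.1 FPKM without in co-cultures (change -0.50), and 18 FPKM with IL-1β and 28.8 FPKM without in normal cultures (change -0.65).

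The remaining 4 markers depended on time or culture. Cd34 had 8.89, 9.21 and 9.07 FPKM in co-cultures with IL-1β at 36 h against 19.27, 19.82 and 18.38 FPKM without (change -1.0, SE 0.09, limma adjusted p = 1.67e-09), and normal cultures at 36 h changed by -1.10. At 72 h Cd34 averaged 14 ± 0.884 FPKM with IL-1β and 21.2 ± 0.767 FPKM without in co-cultures (change -0.56, limma adjusted p = 1.24e-05). In normal cultures at 72 h it averaged 20.3 ± 4.32 FPKM with IL-1β and 21.7 ± 1.2 FPKM without (change -0.11, 95% interval -0.29 to 0.07). Without the high replicate 1 with IL-1β that change was -0.27 (limma adjusted p = 0.000414).

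Thy1 rose slightly with IL-1β at 36 h, by 0.12 in co-culture (limma adjusted p = 0.0418) and by 0.19 in normal culture (limma adjusted p = 0.00205). At 72 h it fell in co-culture, to 74.64, 78.64 and 86.67 FPKM with IL-1β against 92.93, 87.43 and 91.78 FPKM without (change -0.18, SE 0.05, limma adjusted p = 0.0038). In normal cultures at 72 h Thy1 changed by -0.05 (95% interval -0.15 to 0.05). Scaling to TPM moved the median of all tested genes in that comparison to -0.20, against -0.08 as deposited; Thy1 was 0.02 above the median with TPM and 0.03 above it as deposited, although -0.18 passed with TPM (limma adjusted p = 0.000478), and it was 0.03 with median-of-ratios scaling. The rise in co-culture at 36 h was lost with TPM (change 0.04, limma adjusted p = 0.341) and without any 1 of 5 of the 6 libraries compared.

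Pi16 and Dpp4 stayed near or under 1 FPKM throughout. Pi16 averaged 0.577 ± 0.0208 FPKM with IL-1β and 0.267 ± 0.0643 FPKM without in normal cultures at 72 h (change 0.32, limma adjusted p = 0.00398), and 0.85 ± 0.052 FPKM with IL-1β and 0.473 ± 0.155 FPKM without in co-cultures at 36 h (change 0.33, limma adjusted p = 0.00299). In co-cultures at 72 h Pi16 changed by 0.22 (limma adjusted p = 0.0469), a call lost in 15 of 24 fits that leave out a library, with the smallest change (0.14) without replicate 3 with IL-1β. Dpp4 fell at 72 h, by 0.23 in co-culture (limma adjusted p = 0.0265) and by 0.25 in normal culture (limma adjusted p = 0.0126). The call in co-culture was lost without replicate 1 or 3 with IL-1β or replicate 1 or 2 without it (changes -0.22 to -0.18), and that in normal culture without replicate 1 of the untreated cultures (change -0.22, limma adjusted p = 0.0507). Its changes at 36 h were -0.10 in co-culture (95% interval -0.27 to 0.08) and 0.07 in normal culture (95% interval -0.10 to 0.24).

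Whether co-culture altered the response to IL-1β was tested as the interaction, the IL-1β effect in co-culture minus that in normal culture. At 36 h, 2 of 10 markers passed, where 6.96% of all tested genes passed, 4.73% higher and 2.23% lower: Clec3b at 0.93 (SE 0.15, limma adjusted p = 0.000484) and Dpt at 0.90 (SE 0.18, limma adjusted p = 0.00295). Both had lower untreated levels in co-culture and similar levels with IL-1β, as the values above show. With a pseudocount of 0.1 the Clec3b interaction was 0.81 and did not pass (limma adjusted p = 0.287). At 72 h, 1 of 10 passed, where 3.11% of all tested genes passed, 1.68% higher and 1.43% lower: Cd34 at -0.45 (SE 0.12, limma adjusted p = 0.0461), lost in 18 of 24 fits that leave out a library (limma adjusted p = 0.122 without co-culture replicate 2 with IL-1β) and without the filter on low values (limma adjusted p = 0.0718). Without the high replicate 1 of normal cultures with IL-1β the Cd34 interaction was smaller, at -0.29 (limma adjusted p = 0.0393).

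The IL-1β effect differed between times for 5 of 10 markers in co-culture, where 28.8% of all tested genes passed, 14.1% higher and 14.8% lower. It differed for 6 of 10 in normal culture, where 45.4% passed, 23.7% higher and 21.6% lower. In normal culture the effect at 72 h minus that at 36 h was 1.76 for Clec3b (SE 0.15, limma adjusted p = 4.87e-09), 1.63 for Dpt (SE 0.18, limma adjusted p = 2.02e-07) and 0.99 for Cd34 (SE 0.12, limma adjusted p = 1.17e-06), so the falls were smaller at 72 h. Clec3b lay at 0.1 FPKM or less with IL-1β at both times, so its fall was limited by its untreated level. That level averaged 5.01 FPKM at 36 h and 0.8 FPKM at 72 h. For Pdgfrb, Dpp4 and Thy1 the difference between times was -0.34, -0.32 and -0.24. The fall of Pdgfrb was larger at 72 h (-0.53) than at 36 h (-0.19). The Dpp4 change was 0.07 at 36 h and -0.25 at 72 h, and the Thy1 change 0.19 and -0.05. The Dpp4 difference was lost without replicate 1 of any of the 4 normal groups or replicate 2 with IL-1β at 36 h (lowest in size without untreated replicate 1 at 36 h, -0.22). In co-culture the differences were 1.02 for Clec3b, 0.70 for Dpt and 0.44 for Cd34, and -0.38 for Pdgfrb and -0.30 for Thy1. For Pdgfra the difference did not pass, at 0.10 in co-culture (95% interval -0.13 to 0.32) and 0.26 in normal culture (0.04 to 0.48, limma adjusted p = 0.0546). For Twist2 the difference was 0.01 in co-culture (95% interval -0.24 to 0.26) and 0.24 in normal culture (-0.01 to 0.49). These 2 sets of tests were added after the values had been seen.

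**Figure D3:**
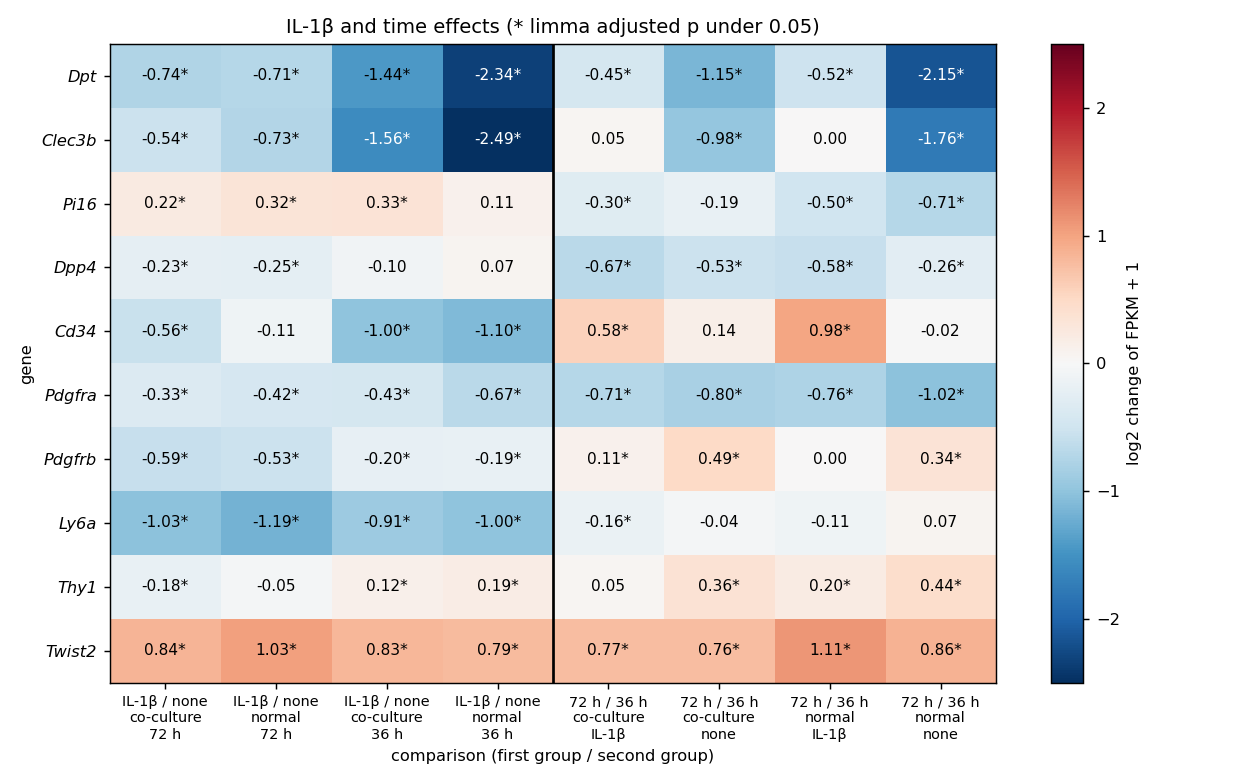
Change of each marker (rows; difference of log2(FPKM + 1), colour scale and printed value; asterisk, limma adjusted p under 0.05) for IL-1β against none in 4 settings (left of the line) and for 72 h against 36 h in 4 settings (right). Twist2 is positive in all 8 columns (0.76 to 1.11), Pdgfra is negative in all 8, and Dpt has its largest falls where untreated normal cultures at 36 h are the group set against.

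Between 72 h and 36 h the markers split in direction. Of 40 tests, 12 were higher at 72 h, 18 were lower and 10 did not pass. Twist2 rose in all 4 settings, and Dpt, Pdgfra and Dpp4 fell in all 4. With IL-1β, 3 markers rose and 5 fell in co-culture, where 64.3% of all tested genes passed, 35.4% higher and 28.9% lower. In normal culture with IL-1β, 3 rose and 4 fell, where 69.1% passed, 37.1% higher and 32% lower. Without IL-1β, 3 rose and 4 fell in co-culture, where 61.5% passed, 36.6% higher and 24.9% lower. In normal culture without IL-1β, 3 rose and 5 fell, where 58.4% passed, 33.1% higher and 25.3% lower. The groups did not overlap with IL-1β for 7 markers in co-culture and 6 in normal culture, as for 67.7% and 64.7% of all tested genes. Without IL-1β they did not overlap for 8 in co-culture and 7 in normal culture, as for 72.7% and 68.7%.

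Among the falling markers, Dpt in untreated normal cultures had 2.26, 2.18 and 2.29 FPKM at 72 h against 13.35, 12.96 and 13.85 FPKM at 36 h (change -2.15, SE 0.13, limma adjusted p = 2.59e-12). In untreated co-cultures its change was -1.15. Clec3b in untreated normal cultures had 1.2, 0.4 and 0.8 FPKM at 72 h against 4.89, 5.19 and 4.94 FPKM at 36 h (change -1.76, limma adjusted p = 3.71e-12), and in untreated co-cultures its change was -0.98. With IL-1β, where it was near 0 at both times, Clec3b changed by 0.05 in co-culture and by 0.00 in normal culture, and neither passed. Pdgfra in untreated normal cultures had 48.39, 45.54 and 48.19 FPKM at 72 h against 93.09, 100.55 and 98.03 FPKM at 36 h (change -1.02, SE 0.08, limma adjusted p = 1.38e-10). The other Pdgfra changes ran from -0.80 to -0.71, with no overlap in any of the 4. Dpp4 fell most in co-cultures with IL-1β, with 0.29, 0.42 and 0.24 FPKM at 72 h against 1.07, 1.2 and 0.99 FPKM at 36 h (change -0.67, limma adjusted p = 4.49e-07). Pi16 in untreated normal cultures averaged 0.267 ± 0.0643 FPKM at 72 h and 1.07 ± 0.211 FPKM at 36 h (change -0.71, limma adjusted p = 6.45e-07). Without 1 library each, 2 falls were lost: that of Dpp4 in untreated normal cultures (-0.26) without replicate 2 of 36 h (-0.19, limma adjusted p = 0.085), and that of Pi16 in co-cultures with IL-1β (-0.30) without replicate 2 of 72 h (-0.22, limma adjusted p = 0.0541).

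Among the rising markers, Twist2 in normal cultures with IL-1β had 24.58, 18.74 and 22.51 FPKM at 72 h against 9.93, 9.41 and 9.47 FPKM at 36 h (change 1.11, SE 0.08, limma adjusted p = 1.64e-10). Pdgfrb rose without IL-1β, by 0.49 in co-culture (limma adjusted p = 1.61e-09) and by 0.34 in normal culture (limma adjusted p = 4.18e-07). With IL-1β it changed by 0.00 in normal culture (95% interval -0.09 to 0.09) and by 0.11 in co-culture (limma adjusted p = 0.0284), a call lost with TPM or median-of-ratios scaling, and without replicate 1 or 2 of 72 h or replicate 2 of 36 h (changes 0.08 to 0.10). Thy1 in untreated normal cultures had 91.04, 83.53 and 87.52 FPKM at 72 h against 64.81, 63.36 and 64.46 FPKM at 36 h (change 0.44, SE 0.05, limma adjusted p = 9.93e-08). Cd34 rose with IL-1β, by 0.58 in co-culture (limma adjusted p = 5.77e-06) and by 0.98 in normal culture (limma adjusted p = 1.95e-09), and its untreated changes were 0.14 and -0.02 and did not pass. Ly6a changed least of the abundant markers, between -0.16 and 0.07, and passed in co-cultures with IL-1β alone (limma adjusted p = 0.0366), a call lost without the filter on low values (limma adjusted p = 0.0517) and without replicate 1 or 2 of 72 h or replicate 1 or 3 of 36 h (change -0.09 without replicate 2 of 72 h, and -0.26 without replicate 3 of 72 h). Ly6a is also known as an interferon-inducible gene. Over the same times 10 of 12 tested interferon-stimulated genes fell in untreated co-cultures and in normal cultures with IL-1β, where 24.9% and 32% of all tested genes fell. In co-cultures with IL-1β 8 of 12 fell, and in untreated normal cultures 9 of 12, where 28.9% and 25.3% of all tested genes fell. Whether the changes of Ly6a are linked to those of these genes was not tested.

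Thy1, Cd34 and Ly6a also mark blood cells in the mouse, and leukocyte genes moved with time. All 9 tested leukocyte genes rose by 72 h in untreated co-cultures and in untreated normal cultures, where 36.6% and 33.1% of all tested genes rose. The 11 listed genes summed to 98.5 to 109 FPKM in untreated co-cultures at 72 h against 51.4 to 55.5 FPKM at 36 h, and to 101 to 109 FPKM in untreated normal cultures at 72 h against 51.5 to 60.9 FPKM at 36 h. Ptprc, the pan-leukocyte antigen CD45, stayed at or below 0.65 FPKM in every library. Between 24.9% and 32% of all tested genes fell by 72 h over the 4 settings. Of 4 tested Schwann cell and melanocyte genes, all 4 fell in each setting. The part of leukocytes, Schwann cells and melanocytes in the changes of Thy1, Cd34 and Ly6a was not tested. No leukocyte gene passed in any comparison of co-culture with normal culture.

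The labelled cell type was checked with 20 chondrocyte genes. They summed to 824 to 1175 FPKM in the 12 untreated libraries and to 316 to 369 FPKM in the 12 with IL-1β. Col2a1 and Col11a1 led the list, averaging 361 and 151 FPKM over the 24 libraries. Between 3 and 5 of the 20 genes averaged under 1 FPKM in each untreated group, and between 8 and 11 with IL-1β. From the other lists, Col1a1, Col1a2 and Vim averaged 1903, 1760 and 1545 FPKM, above Col2a1. Col2a1, the main cartilage collagen, averaged 777 FPKM in untreated co-cultures at 72 h and 302 FPKM in untreated normal cultures at 36 h, the highest and lowest untreated groups. The fibroblast markers and the chondrocyte genes were thus present in the same libraries, and whether in the same cells cannot be told apart in bulk RNA.

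Other fibroblast genes were read the same way. In untreated cells at 36 h, 10 of 19 tested further universal fibroblast genes were lower in co-culture and 3 were higher. Their median change was -0.20, against -0.03 for all tested genes. The counts here for this comparison are to be read beside 15.5% of all tested genes passing, 6.28% higher and 9.2% lower. Anxa3, a membrane-binding annexin, was higher (0.65), and Col14a1, a fibril-associated collagen, and Dcn, encoding the decorin that dermatopontin binds, were lower (-0.50 and -0.47). Dcn averaged 313 FPKM in untreated co-cultures and 435 FPKM in normal cultures at 36 h. Unlike Dpt, Dcn rose with IL-1β, by 3.04 in co-culture and 3.09 in normal culture at 72 h and by 2.38 in co-culture and 2.26 in normal culture at 36 h. Of 15 dermal lineage and positional genes, 4 were lower in co-culture in untreated cells at 36 h and none higher, with Col23a1 at -0.59, Sfrp4 at -0.38 and Tbx18 at -0.23. In the same comparison 3 of 17 tested chondrocyte genes were higher in co-culture (Col2a1, by 0.38, among them) and 1 was lower (Epyc -0.42). Tbx15, a transcription factor of dermal and skeletal mesenchyme, averaged between 47.5 and 72 FPKM in all 8 groups.

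The other co-culture comparisons gave the following counts, to be read beside the shares of all tested genes passing. These shares were 12.5% with IL-1β at 72 h (7.22% higher and 5.26% lower) and 3.4% without IL-1β at 72 h (1.72% higher and 1.68% lower). With IL-1β at 36 h the share was 10.6% (6.38% higher and 4.17% lower). Of the 19 universal fibroblast genes, 2 were higher and 4 lower in co-culture with IL-1β at 72 h, none was higher and 1 was lower without IL-1β at 72 h (Cd248, -0.31), and 1 was higher and 1 lower with IL-1β at 36 h. Of the 15 dermal genes, 1 was higher and 3 lower with IL-1β at 72 h, none higher and 2 lower without IL-1β at 72 h, and 1 higher and 4 lower with IL-1β at 36 h.

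Endothelial and keratinocyte genes had low summed levels in every group. The 10 endothelial genes summed to between 4.39 and 7.39 FPKM in all 24 libraries, with Pecam1 at most 0.31 FPKM and Cdh5 at most 0.27 FPKM in any library. Egfl7 led this list, at 2.16 to 5.48 FPKM. The 12 keratinocyte genes summed to between 2.79 and 12.5 FPKM, with Krt5, the basal keratin, at most 0.11 FPKM. Perp and Trp63 led that list, at 0.36 to 8.78 FPKM and 0.48 to 3.3 FPKM. In untreated cells at 72 h the keratinocyte genes summed to 8.77 to 10.03 FPKM in co-cultures and to 11.8 to 12.5 FPKM in normal cultures, so the level was not higher beside the fibroblasts. Some genes of other cells that skin also holds were not scarce. Over all 24 libraries the 9 pericyte and smooth muscle genes summed to between 882 and 1778 FPKM. The 8 adipocyte genes summed to between 52.6 and 157 FPKM and the 11 leukocyte genes to between 51.4 and 149 FPKM. Few genes carried these sums: Acta2 averaged 1100 and Ndufa4l2 248 FPKM, Fabp4 49.8 and Lpl 45.4 FPKM, and Lyz2 70.8 FPKM. Between 3 and 5 adipocyte genes and between 2 and 6 leukocyte genes averaged under 1 FPKM in each group.

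**Figure D4:**
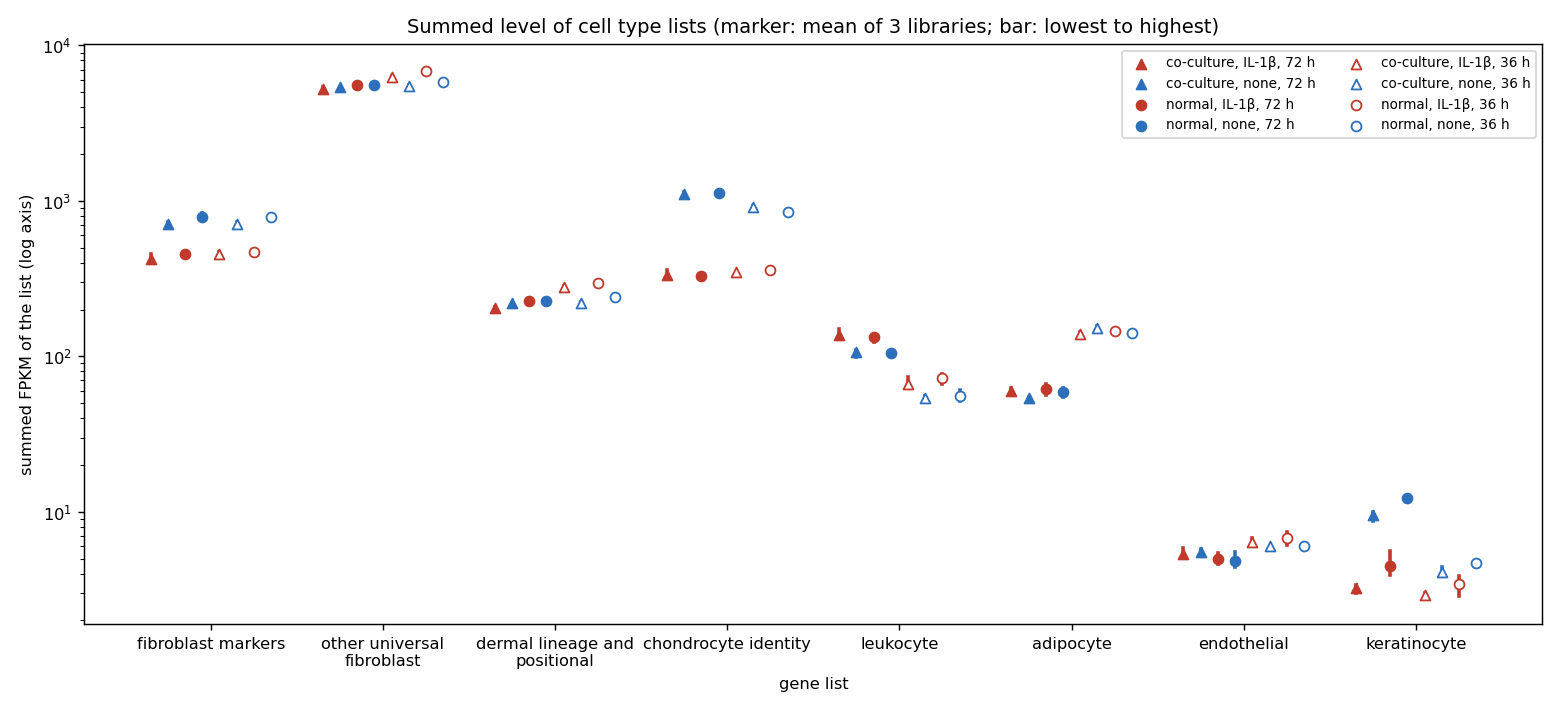
Summed FPKM (log axis) of 8 gene lists in the 8 groups; markers are means of 3 libraries and bars run from the lowest to the highest library, triangles are co-cultures, circles normal cultures, red IL-1β, blue none, filled 72 h and open 36 h. The fibroblast markers sum to 401 to 472 FPKM with IL-1β and to 684 to 833 FPKM without, and co-cultures do not lie above normal cultures without IL-1β.

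The genes whose levels ran most like each marker were found by Pearson r of log2(FPKM + 1) over the 8 group means, given as a description. For Dpt the closest was Sema5a (r = 0.99), for Clec3b Crocc2 (r = 0.997) and for Pdgfra Angpt1 (r = 0.99). For Ly6a it was Sntb2 (r = 0.999), for Twist2 Slit2 (r = 0.997) and for Pdgfrb Fig4 (r = 0.99). Dpp4 was closest to Prickle3 and Cd34 to Ndor1 (r = 0.98 each), Thy1 to Rgs4 (r = 0.98) and Pi16 to Ptprs (r = 0.98). No marker was among the closest genes of another marker. Over 24 libraries in place of 8 means, r was 0.82 for Dpp4 with Prickle3 and 0.86 for Ly6a with Sntb2, and 0.99 for Pdgfra with Angpt1.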

How the data were processed

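Poly(A)-selected RNA of primary mouse chondrocytes was measured in 24 libraries. The authors deposited 1 FPKM value per gene and library, per the file headers, rounded to 2 decimals. The genome build was GRCm38, per the submitters' processing notes; aligner, counter, annotation, strand handling, filters and read depth are not given in the sources used here.

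Genes with at least 1 FPKM in at least 3 libraries (12178) were fitted on the log2(FPKM + 1) scale, using limma 3.58.1 (R 4.3.3; trended prior; 1 mean per group over 24 libraries), 16 residual degrees of freedom, and adjusted by Benjamini-Hochberg within each of 18 comparisons; 2 of these, the difference of the IL-1β effect between times, were added after the data were seen. The procedure was tested on simulated data. Figures used matplotlib 3.10.9 under Python 3.11. Markers and gene lists were chosen with earlier results of these data known. All 10 markers are named; of the 17 other lists, only counts, sums, the 3 most expressed genes and up to 3 largest passing changes, plus a few defining genes (Pecam1, Cdh5, Krt5, Ptprc, and Twist1 at 36 h) whose choice followed their values. Promoters are from RefSeq on GRCm38.p6; 6 markers were searched for motifs; Thy1, Clec3b, Ly6a and Pdgfrb were not.

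Alternatives were log2(FPKM + 0.1), no filter, a filter at 5 FPKM (which leaves out Clec3b, Dpp4 and Pi16), TPM and median-of-ratios scaling, the compared groups only, the replicate block, weights per library, leaving out each library and, added later, the compared groups with the block. Same-numbered libraries deviated together, with all correlations above 0.1, for co-culture against normal culture with IL-1β at 72 h alone (0.364, 0.179 and 0.577), and the pairing comes from these correlations, not from the labels. One result for a gene of another list is not reported here.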

Additional observations from a re-analysis of the deposited data

Results flagged for a closer look

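Each difference here was itself tested with limma, with p adjusted by Benjamini-Hochberg over all tested genes; values are differences of log2(FPKM + 1), and no explanation was tested. The IL-1β effect differed between the 2 kinds of culture, as co-culture minus normal culture, for Clec3b (0.93) and Dpt (0.90) at 36 h and for Cd34 (-0.45) at 72 h. The Cd34 call was lost in 18 of 24 fits that leave out a library, and that of Clec3b with a pseudocount of 0.1. The co-culture effect without IL-1β differed between the times, as 72 h minus 36 h, for Dpt (1.00), Clec3b (0.79) and Pi16 (0.52). The Pi16 call was lost in 3 of 24 such fits.

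The IL-1β effect in co-culture differed between the times for Clec3b (1.02), Dpt (0.70), Cd34 (0.44), Pdgfrb (-0.38) and Thy1 (-0.30), again as 72 h minus 36 h. In normal culture it differed for Clec3b (1.76), Dpt (1.63), Cd34 (0.99), Pdgfrb (-0.34), Dpp4 (-0.32) and Thy1 (-0.24). The Dpp4 call was lost in 5 of 24 fits that leave out a library. The co-culture set and the normal culture set share no library with each other. The interaction at 36 h, the co-culture effect without IL-1β and the normal culture set all include untreated normal cultures at 36 h. Dpt and Clec3b were highest in that group (13.4 and 5.01 FPKM), so their differences in those tests are not independent results.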

How the results depend on the processing

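No change of a marker that passed turned its direction under any alternative. Counts of markers past the threshold moved by over 1.5 times as follows. For co-culture against normal culture, the count with IL-1β at 72 h (2) was 0 in the compared groups only, 0 with the compared groups and the replicate block, and 1 with weights per library. With IL-1β at 36 h (0) it was 1 under each of these 3 alternatives. Without IL-1β at 72 h (0) it was 1 with a filter at 5 FPKM, TPM, the compared groups only, the replicate block or weights per library, and 2 with the compared groups and the replicate block. Without IL-1β at 36 h (5) it was 2 with the filter at 5 FPKM, which removes 3 markers, and 8 with the compared groups only or weights per library. The filter at 5 FPKM gave 5 in place of 8 for IL-1β in normal culture at 72 h and for 72 h against 36 h in untreated normal culture. The interaction at 72 h (1) was 0 without a filter, with TPM, and in the compared groups with or without the block; that at 36 h (2) was 1 with a pseudocount of 0.1 or the filter at 5 FPKM. For the co-culture effect between times, the count with IL-1β (0) was 1 with weights per library, and that without IL-1β (3) was 1 with the filter at 5 FPKM and 5 with weights per library or in the compared groups with or without the replicate block.

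Leaving out each library in turn gave the following lowest and highest counts. For co-culture against normal culture they were 1 and 2 (IL-1β, 72 h), 0 and 1 (IL-1β, 36 h), 0 and 1 (none, 72 h) and 4 and 7 (none, 36 h). For IL-1β they were 8 and 10 (co-culture, 72 h), 8 and 9 (co-culture, 36 h), 7 and 9 (normal, 72 h) and 8 and 8 (normal, 36 h). For 72 h against 36 h they were 5 and 8 (co-culture with IL-1β) and 7 and 8 in each of the other 3 settings. For the interaction they were 0 and 1 at 72 h and 2 and 2 at 36 h, for the co-culture effect between times 0 and 2 with IL-1β and 2 and 3 without, and for the IL-1β effect between times 5 and 6 in co-culture and 5 and 8 in normal culture. The replicate block over all libraries changed the calls of 2 markers, Ly6a without IL-1β at 72 h, co-culture against normal culture (limma adjusted p = 0.0372), and Pi16 in co-culture at 72 h with IL-1β against none (limma adjusted p = 0.0529). Apart from the filter at 5 FPKM, which leaves fewer markers, the cause of these shifts was not tested. The depth behind the values is unknown, and the table is rounded to 2 decimals, which limits Clec3b most, since it is listed at 0.1 FPKM or less with IL-1β.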
